A study of Mus musculus with 8 samples.

Results

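The genes described here encode neuronal intermediate filament proteins, stathmins and the growth cone protein Gap43. They were taken by name as a list of 10 genes: Nefl, Nefm, Nefh, Ina, Prph, Stmn1, Stmn2, Stmn3, Stmn4 and Gap43. Of these 10, 9 had a row among the 16279 genes of the input RNA table, and 8 of the 9 had an adjusted p-value. Nefl was not analysed here. The cells were mouse N2a neuroblastoma cells, harvested 48 h after an siRNA against Emg1 or a control siRNA (siControl) was introduced. Emg1 encodes a methyltransferase of the small subunit ribosomal RNA. RNA selected for poly(A) tails was sequenced as input and after immunoprecipitation (IP) with an antibody against N6-methyladenosine (m6A), with 2 libraries for each of the 4 groups. Every library came from this 1 cell line, and the labels do not say whether the libraries of a group were separate cultures, so the p-values may measure technical spread only.

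Neurofilaments are rope-like polymers that fill the axon and set its calibre. Nefl, Nefm and Nefh are their light, medium and heavy subunits, and Ina (alpha-internexin) and Prph (peripherin) are further neuronal subunits that can assemble with them, with peripherin typical of peripheral and sympathetic neurons. Stathmins bind free tubulin dimers and promote the shortening of microtubules. Stmn1 is a cytosolic form found in many dividing cells, and Stmn2 (SCG10), Stmn3 (SCLIP) and Stmn4 (RB3) are neuronal forms anchored to membranes by palmitoylation. Gap43 is a calmodulin-binding protein on the inner face of the growth cone membrane, with levels that are high during axon growth. Neuroblastoma cells resemble immature sympathetic neurons and express many of these genes.

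Neither deposited table holds a value per library. The spread between replicates is therefore known only through the standard error (SE) and adjusted p of the authors' DESeq2 fit, and neither the depth of each library nor the overlap of the groups was available. Emg1 itself fell to 30.2% of control (log2 fold change -1.73 ± 0.11, SE) in the authors' deposited table, which names no direction, so changes are read as knockdown over control from this fall. In the same table the sympathoadrenal markers were present, with 15 of 16 listed, among them Ret, Hand2 and Chgb at mean normalized counts of 27316, 10441 and 10221. Of the 14 with an adjusted p, 10 rose and 1 fell (median log2 fold change 0.35), with Ret at 0.77 ± 0.05, Hand2 at 0.22 ± 0.06 and Chgb at 0.26 ± 0.06 (SE) in the authors' deposited table. Of the pan-neuronal markers, 9 of 9 were listed, with Uchl1, Tubb3 and Elavl4 at means of 22823, 21840 and 5529 in the authors' deposited table. Of the 9, 2 rose and 1 fell. The 1 that fell, named after its value was seen, was Eno2, at -0.515 ± 0.071 (log2, SE). Markers of other cell types were mostly low or not matched. Of 10 glial markers, 8 of the 9 listed had a mean under 100, among them Aqp4 at 13.4, and Mbp led at 688. Fibroblast markers were led by Pdgfra, Pdgfrb and Dcn at 1357, 332 and 99.1, with 5 of 9 not matched. Leukocyte markers were led by Cd74, Cd68 and Csf1r at 930, 15.4 and 3.96, with 5 of 9 not matched, and endothelial and epithelial markers by Pecam1, Tek and Cdh5 at 407, 39.3 and 8.96, with 3 of 8 not matched. Pdgfrb (-0.98 ± 0.19, log2, SE) and Cd74 (-0.74 ± 0.12) fell in the authors' deposited table. The part of these marker changes, those of the sympathoadrenal list included, in the results below was not tested.

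Promoter sequences are given for the few members that could be matched. The RefSeq promoter table (GRCm38.p6, the same build as mm10) matched 3 of the 10 members, Ina, Prph and Stmn3. The 40 bases from position -46 to -7 before the annotated start are given 5′ to 3′ on the strand of the gene, with a TATAA match in capitals. They lie at chr19:47014635-47014674 (plus strand) for Ina, chr15:99055128-99055167 (plus strand) for Prph and chr2:181314507-181314546 (minus strand) for Stmn3. The Prph stretch precedes the start site used in the promoter table, which lies inside the RefSeq span of the gene (99053579 to 99058978).
Ina: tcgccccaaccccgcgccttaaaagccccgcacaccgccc
Prph: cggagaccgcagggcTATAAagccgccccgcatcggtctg
Stmn3: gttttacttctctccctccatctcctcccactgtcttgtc
Prph alone of these 3 held the letters TATAA, on the strand of the gene and starting at position -31. On the strand of the gene they occurred in the same stretch of 4.35% of the 32851 promoters in the table, and on either strand in 5.57%. The GC content of the stretch was 72.5% in Ina, 67.5% in Prph and 50.0% in Stmn3, against a median of 55.0% over all promoters.

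The members did not move as a block in input RNA. Of the 8 with an adjusted p, 3 fell, 1 rose and 4 did not pass an adjusted p of 0.05. Over all 12807 genes with an adjusted p, 32.6% passed, 15.5% as falls and 17.1% as rises. The 8 members had mean normalized counts of 1084 to 25851, and among the 6246 genes whose mean was 1084 or more the share that passed was 46.0%. A count of 4 in 8 is close to that share. The median log2 fold change of the 8 members was -0.03, beside 0.00 for all genes with an adjusted p and 0.03 for the 6246. In bulk RNA, fewer cells that express a gene and less RNA per cell cannot be told apart.

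Of the 2 neurofilament subunit genes analysed, Nefh had measurable RNA and Nefm did not. The mean normalized count of Nefh was 4118 in the authors' deposited table. Nefh did not pass, at 0.06 ± 0.08 (log2, SE), with an adjusted p of 0.608 and a 95% interval of -0.09 to 0.22. This interval corresponds to 93.7% to 116.2% of control. Nefm, the medium subunit, had a mean of 1.32 normalized counts and no adjusted p in the authors' deposited table, and its SE of 3.04 leaves its change unmeasured. The span of Nefh overlaps that of the lncRNA gene Gm35321 by 4484 bases and that of Ap1b1 by 745 bases, and it is not stated if the counting used strand.

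The 2 further intermediate filament genes differed in outcome. Ina, with a mean of 1178 normalized counts, was the one member that rose, by 0.28 ± 0.10 (log2, SE), to 121.2% of control (95% interval 105.3 to 139.4), with an adjusted p of 0.0262 in the authors' deposited table. The Ina span shares 494 bases with Nt5c2, which had a mean of 2692. Prph had the most counts behind it of all members, with a mean of 25851, and its interval was the narrowest. In the authors' deposited table its value was -0.0068 ± 0.05 (log2, SE; adjusted p = 0.938), and its 95% interval runs from 92.9% to 106.6% of control. The intervals of Ina (0.08 to 0.48, log2) and Prph (-0.11 to 0.09) overlap.

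The stathmins split into a pair that fell and a pair that did not pass. Stmn2 fell by 0.65 ± 0.06 (log2, SE), to 63.8% of control (95% interval 58.7 to 69.3), with an adjusted p of 6.06e-24 in the authors' deposited table. By adjusted p it ranked 82 among the 12807 genes. Stmn4 fell by 0.52 ± 0.11 (log2, SE), to 69.9% of control (60.4 to 80.9), with an adjusted p of 1.78e-05 in the authors' deposited table. Their intervals, -0.77 to -0.53 for Stmn2 and -0.73 to -0.31 for Stmn4, overlap, so the 2 falls cannot be ordered.

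Stmn1 and Stmn3, with mean normalized counts of 16931 and 7885, did not pass. In the authors' deposited table Stmn1 was at 0.07 ± 0.06 (log2, SE; adjusted p = 0.403) and Stmn3 at -0.04 ± 0.06 (adjusted p = 0.608). Their 95% intervals, 96.9% to 113.4% and 89.6% to 104.9% of control, do not reach the upper bounds of Stmn2 and Stmn4 (69.3% and 80.9%). Stmn3, a membrane-anchored form, thus lay apart from Stmn2 and Stmn4 by these intervals.

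Of the 1987 genes that fell, 24.0% fell at least as much as Stmn2. Of the 263 genes with an adjusted p and a mean at least that of Stmn2 (13352), 5 did, Stmn2 included. The other genes of this group, named after the values were seen, were Actg1 (cytoplasmic gamma actin), H1f0 (a linker histone), Lars2 and Rpl39. They were at -1.02 ± 0.05, -0.88 ± 0.05, -0.66 ± 0.19 and -0.65 ± 0.05 (log2, SE) in the authors' deposited table. Their mean normalized counts were 27829, 22392, 406675 and 14512, and what lies behind the very high mean of Lars2 was not tested. The count of 5 rests on the estimates alone, and by these SEs Lars2 and Rpl39 cannot be ordered against Stmn2.

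Gap43 fell by a smaller amount. It was at -0.23 ± 0.07 (log2, SE), 85.4% of control (95% interval 77.4 to 94.2), with an adjusted p of 0.0076 and a mean of 3503 in the authors' deposited table. Its interval, -0.37 to -0.09, lies apart from that of Stmn2 and overlaps that of Stmn4. Ranked from the lowest change to the highest, the members ran Stmn2, Stmn4, Gap43, Stmn3, Prph, Nefh, Stmn1 and Ina. Each pair of neighbours in this order had overlapping intervals, and no difference between members was tested.

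**Figure D1:**
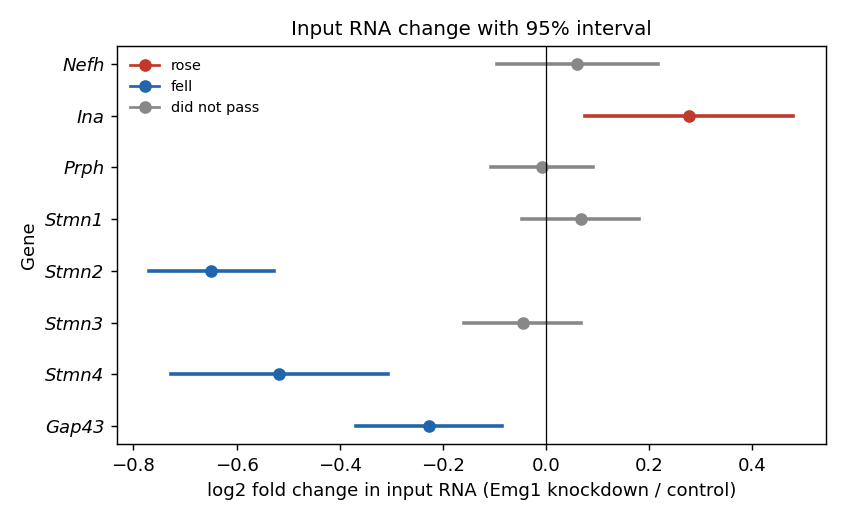
The log2 fold change of each of the 8 members with an adjusted p in input RNA (x axis, Emg1 knockdown over control) is shown as a point with its 95% interval as a line, coloured by whether it rose, fell or did not pass an adjusted p of 0.05. Stmn2, Stmn4 and Gap43 lie left of 0 and Ina right of it, and the other 4 intervals cross 0.

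**Figure D2:**
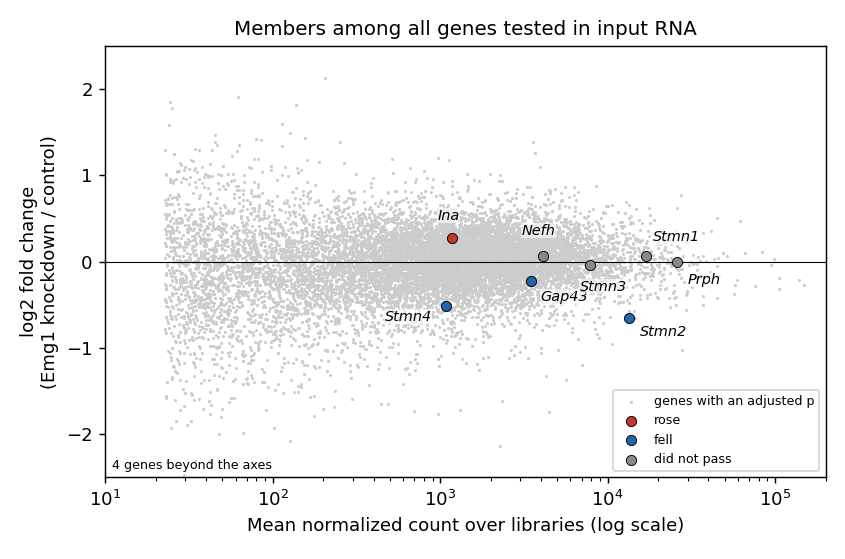
The log2 fold change (y axis) is plotted against the mean normalized count on a log scale (x axis) for genes with an adjusted p, in grey, and the 8 members in colour. Stmn2 lies at the lower edge of the genes with similar counts, while Prph, Stmn1, Stmn3 and Nefh lie near 0.

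Differential m6A peaks were listed on 5 members, Nefh, Stmn1, Stmn2, Stmn3 and Gap43, and each peak had a negative change. The list of 2114 differential peaks on 1912 genes held 1 peak on each of them. Genes with a listed peak made up 14.8% of the 12807 genes with an adjusted p and 23.0% of the 6246 whose mean was 1084 or more. The change was negative for 5 of the 5 member peaks, for 53.1% of all listed peaks and for 57.7% of the 1622 on genes of that higher mean. The numerator of the peak change is not named in the file, so a negative sign is given as deposited and is not read as a gain or a loss. It is also not stated if the peak test pooled the replicates, so the false discovery rates may not measure spread between libraries. Ina, Prph and Stmn4 had no listed peak. Peaks that were not differential were not analysed here, so a gene without a listed peak may still be methylated. The bases under the peaks are not printed, because no genome sequence was used.

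Stmn1 had the peak with the largest change among the members, at -1.07 (log2) in the authors' deposited table. The peak ran over chr4:134468349-134473519 (mm10, plus strand) in 5 blocks of 707 bases in all. It began 29 bases after the annotated gene start and ended 324 bases before the gene end, so its blocks were spread over most of the gene span. Its false discovery rate, 10 to the power of -304, ranked 7 among the 2114 peaks, behind 6 peaks that share the lowest value in the list, -434. The fold enrichment of IP over input was 6.42, near the median of 5.525 over all listed peaks. Stmn1 RNA did not pass in input.

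The Stmn3 peak also began near the gene start. It ran over chr2:181308881-181314351 (minus strand) in 3 blocks of 158, 96 and 16 bases in the order of transcription, the first starting 149 bases after the gene start. Its change was -0.78 (log2), its fold enrichment 2.87 and its false discovery rate 3.16e-29 in the authors' deposited table. Of all listed peaks, 27.7% were less enriched. Like Stmn1, Stmn3 did not pass in input RNA.

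The Stmn2 peak lay at the other end of its gene and was weakly enriched. It was a single block of 210 bases at chr3:8560325-8560534 (plus strand), 1070 bases before the gene end, with its midpoint 97.7% along a 52078-base span. Its fold enrichment was 1.54, and 6.7% of listed peaks were less enriched. Its change of -0.66 (log2) had a false discovery rate of 1.26e-32 in the authors' deposited table. The input change of Stmn2 was -0.65 on the same scale, and how the peak change takes account of input RNA is not stated.

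Gap43 had the most enriched member peak. It ran over chr16:42291984-42340651 (minus strand) in 2 blocks, one of 179 bases that begins at the annotated gene start and one of 383 bases whose midpoint is 52.6% along the 92100-base span. Its fold enrichment was 30.7, rank 129 of 2114. Its change was the smallest of the 5 at -0.54 (log2), with a false discovery rate of 3.98e-22 in the authors' deposited table. Both this change, as deposited, and the input change of Gap43 were negative, as for Stmn2.

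Nefh carried the longest single block. It spanned 1281 bases at chr11:4938786-4940066 (minus strand) and ended 32 bases before the gene end, with its midpoint 92.8% along the span. The fold enrichment was 18.6 and the change -0.57 (log2), with a false discovery rate of 2.51e-40 in the authors' deposited table. This peak lies inside the span of the overlapping lncRNA gene Gm35321, which had no row in the input table. Nefh RNA did not pass in input.

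The members also differed in where the peak lay. The peaks on Gap43, Stmn1 and Stmn3 had several blocks and a first base within 150 bases of the gene start, and those on Stmn2 and Nefh were single blocks near the gene end. Of the 2012 listed peaks that fell within the span of their gene, 16.4% began within 150 bases of the gene start, and of the 991 with several blocks 26.9% did. Of the 664 with several blocks and a negative change the share was 35.4%. The share of listed peaks that lay near the gene end was not computed, so the Stmn2 and Nefh positions have no such background. The limit of 150 bases was set after these positions were seen, at the distance of the Stmn3 peak. The span includes introns, and exons, coding sequence and untranslated regions were not analysed here.

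**Figure D3:**
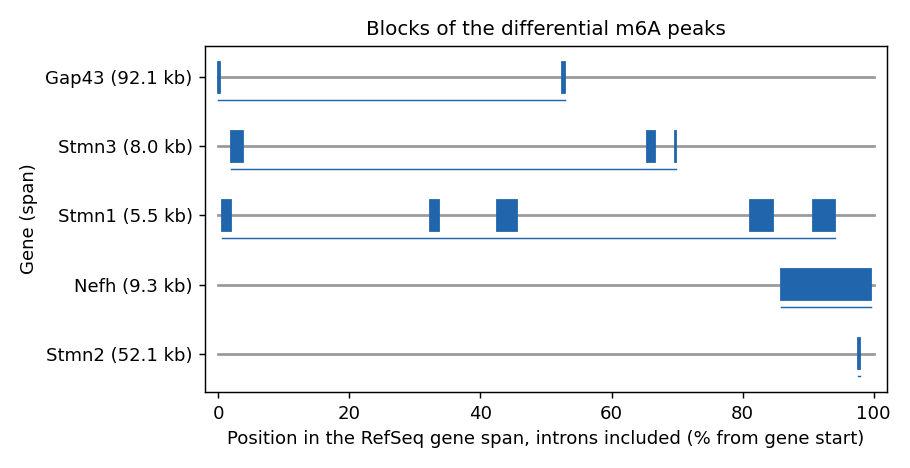
The blocks of the 5 differential peaks on members are drawn along the RefSeq span of each gene, as a percent of the span from the gene start, with a thin line from the first to the last block. The peaks on Gap43, Stmn3 and Stmn1 begin at the left end, and those on Nefh and Stmn2 lie at the right end.

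**Figure D4:**
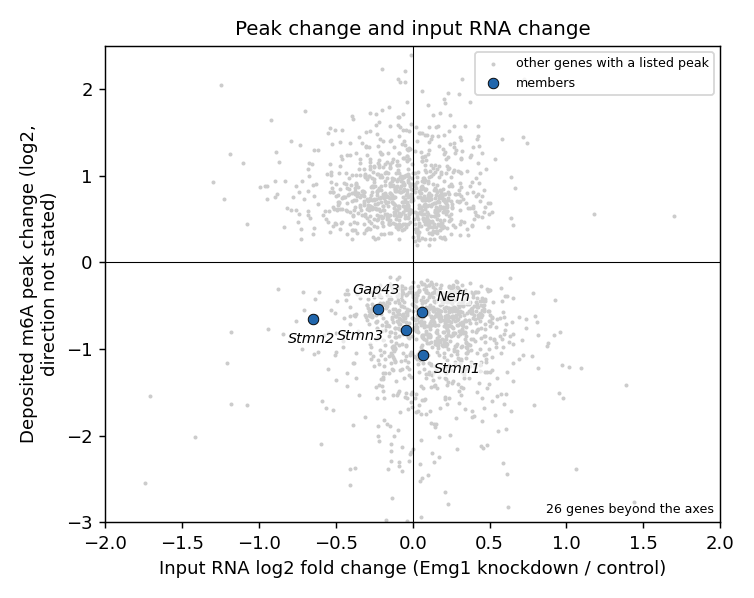
The deposited peak change (y axis, log2, direction not stated) is plotted against the input RNA change (x axis, log2, Emg1 knockdown over control), with 1 point per gene at its largest absolute peak change. The 5 members all lie below 0 on the y axis, with Stmn2 and Gap43 left of 0 in input and Stmn1, Stmn3 and Nefh near it.

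The lists of related genes that follow are given by counts, to be read beside the 17.1% of all genes with an adjusted p that rose, the 15.5% that fell, and the 46.0% that passed either way at the higher mean. The shares that rose or fell include genes of low mean and were not computed apart at the higher mean. Peaks of these lists are to be read beside the negative share of 53.1% over all listed peaks and 57.7% at the higher mean. Among other intermediate filament genes and their linkers, 7 of 12 with an adjusted p rose and 0 fell, with a median log2 fold change of 0.34. Lmna and Lmnb1, which encode nuclear lamins, rose by 0.71 ± 0.07 and 0.65 ± 0.07 (log2, SE) in the authors' deposited table, and Plec, which encodes the linker plectin, by 0.60 ± 0.06. The cytoplasmic filament gene Vim, named after its value was seen, was at -0.01 ± 0.05 and did not pass, like Prph, the neuronal filament protein of the same class. Of the other cytoplasmic filament genes in the list, also named after their values were seen, Nes rose by 0.45 ± 0.08 (log2, SE). Krt8 and Sync did not pass. The list had 6 listed peaks, all negative but on only 2 genes, with Plec at -1.92 and Dst, a further linker, at -1.41. The fold enrichments of these 2 peaks were 7.58 and 1.34, beside the median of 5.525 over all listed peaks.

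Growth cone genes, the company of Gap43, went both ways. Of 20 with an adjusted p, 4 rose and 3 fell, with a median of -0.04. The adhesion molecule gene Ncam1 rose by 0.57 ± 0.06 (log2, SE), the profilin gene Pfn2 fell by 0.49 ± 0.08, and the semaphorin receptor gene Plxna1 was higher by 0.32 ± 0.06 and passed, all in the authors' deposited table. Basp1 encodes a growth cone membrane protein with properties like those of Gap43. It had a 2-block peak with a change of -2.29, a fold enrichment of 14.7 and a false discovery rate at the lowest value in the list (10 to the power of -434). Dpysl3, a collapsin response mediator, had one of -1.34. The list held 8 peaks, 5 negative and 3 positive.

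Microtubule-binding and severing genes, which act on the polymer that stathmins shorten, were also divided. Of 25, 7 rose and 5 fell, with a median of 0.06. The total that passed is near the 46.0% among genes of higher mean and above the 32.6% over all genes. Map1b and Map1s rose by 0.47 ± 0.05 and 0.88 ± 0.12 (log2, SE), and Map2, typical of dendrites, fell by 0.60 ± 0.10 in the authors' deposited table. Of 12 peaks on 9 of these genes, 9 were negative, with the largest changes on Camsap3 (-1.28) and Map7d1 (-1.19), both of which bind microtubules. The Camsap3 peak had a fold enrichment of 19.8, and the Map7d1 peak was weakly enriched, at 1.33.

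Genes of kinases, phosphatases and calmodulin that act on the members rose in 1 case and fell in 7 of 24, with a median of -0.07. The total that passed is near the 32.6% over all genes and below the 46.0% among genes of higher mean. Camk2d, a calmodulin-dependent kinase, fell by 0.29 ± 0.07 (log2, SE), while the kinase gene Rock2, a regulator of the actin cytoskeleton, rose by 0.25 ± 0.06 in the authors' deposited table. Of 9 peaks, 7 were negative, led by the phosphatase subunit gene Ppp2ca at -3.91. The Ppp2ca peak had a fold enrichment of 2.18 and a false discovery rate of 10 to the power of -3.38. Of 13 enzymes that add or remove palmitate, the anchor of Gap43 and the neuronal stathmins, 2 rose and 2 fell, with a median of -0.08. Zdhhc3 and Zdhhc2, palmitoyl transferases, fell by 0.76 ± 0.10 and 0.50 ± 0.10 (log2, SE) in the authors' deposited table, and Zdhhc8 rose by 0.36 ± 0.11. The 2 peaks of this list, on Zdhhc3 (0.89) and Zdhhc17 (0.54), were positive.

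RNA-binding protein genes with known roles on member transcripts or in neuronal splicing rose in 7 cases and fell in 1 of 13, with a median of 0.23. Khsrp, a decay factor that binds the Gap43 transcript, rose by 0.87 ± 0.06 (log2, SE), and the splicing regulator genes Ptbp2 and Ptbp1 were at 0.87 ± 0.07 and -0.48 ± 0.06 in the authors' deposited table. Of 7 peaks, 5 were negative, with Elavl3, of the neuronal Hu family, at -1.38 and -0.95. The fold enrichments of these 2 Elavl3 peaks were 1.62 and 8.61. The REST complex represses neuronal genes, Stmn2 among its classic targets, in cells that are not neurons. In its list 7 rose and 1 fell of 12, with a median of 0.26. Hdac2, a histone deacetylase, fell by 0.78 ± 0.06 (log2, SE), and the histone methyltransferase gene Ehmt2 rose by 0.35 ± 0.07 in the authors' deposited table. Rest itself, named after its value was seen, was at 0.28 ± 0.10 and passed. Its list had 5 peaks, 4 negative, with Kdm1a at 1.01 and Ehmt2 at -0.75.

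**Figure D5:**
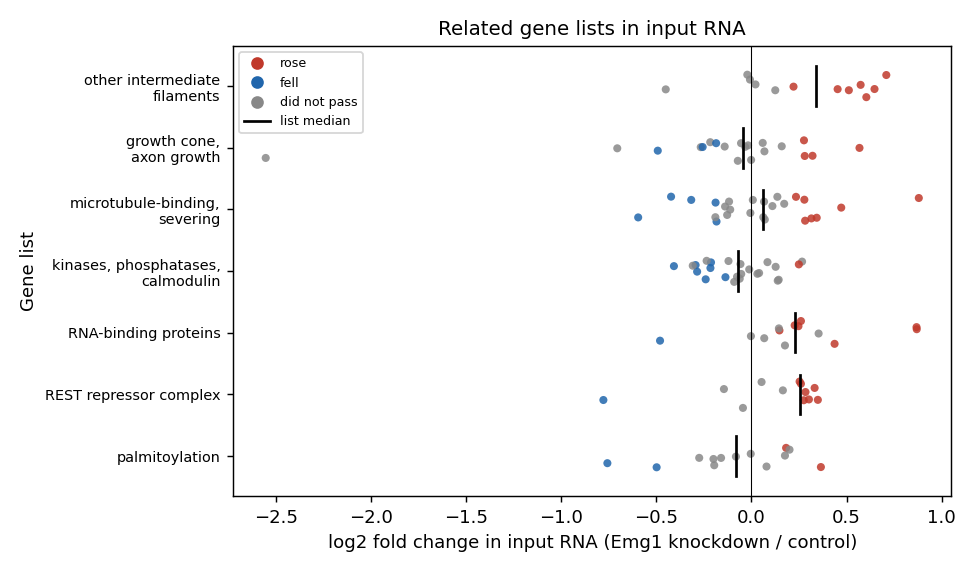
Each point is 1 gene with an adjusted p from 7 lists of related genes, placed by its log2 fold change in input RNA (x axis) and coloured by whether it rose, fell or did not pass, with a black bar at the list median. The medians of other intermediate filaments, RNA-binding proteins and the REST complex lie at 0.34, 0.23 and 0.26, and those of the other 4 lists between -0.08 and 0.06.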

How the data were processed

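The submitters' processing notes name mm10, DESeq2, HISAT2 and Trimmomatic; the read counter, annotation and peak caller are not given in the sources consulted. The input table holds the authors' DESeq2 results: a signal (the mean normalized count, per the file headers), log2 fold changes with their SE, a Wald score, and p-values, all deposited per gene. The peak table holds a deposited fold enrichment ratio, a log2 change, and score columns of log10 p and false discovery rate per peak. Peak positions, written 1-based, were set against RefSeq gene spans of the same build.

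Members and lists were chosen with earlier results of these data known. Calls used the authors' adjusted p under 0.05 over all genes; 95% intervals are normal intervals from the SE. Named genes were all members, up to 3 per pathway list with the smallest adjusted p, up to 2 peaks per list with the largest absolute change, and the 3 markers per list with the highest mean; a few genes that this rule names are not reported here. No count model was refitted, since no values per library were used, and no pattern of likeness between genes was computed. The adjustment step was tested on simulated data. Software was matplotlib 3.10.9, scipy 1.17.1, pandas 2.3.3, numpy 2.4.6 and Python 3.11.15.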

Additional observations from a re-analysis of the deposited data

How the results depend on the processing

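Requiring an absolute log2 fold change of at least 0.5 left 2 members changed, Stmn2 and Stmn4, in place of 4. With an adjusted p under 0.01 the count was 3, without Ina. It was 4 at 0.1, with adjustment over all genes with a p, and when only genes whose mean reached 100 entered. Centring on the median of those higher-mean genes (0.01) or of all genes (-0.015) kept the call of each of the 8 members; under the second, Prph was at 0.01, with no call either way. Of the 5 member peaks, 1, on Stmn1, had an absolute change of at least 1, and 4 had a fold enrichment of at least 2, without Stmn2. The count was 5 with a false discovery rate under 0.001 and, in an alternative chosen after seeing the data, by overlap with gene spans without strand; overlap by strand was not run. No paired analysis was possible because the tables hold no values per library, and leaving out each replicate was not possible for the same reason. The unknown depth limits all values to the precision of the SE.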
